A study of Populus x canadensis with 3 samples.

Results

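miR482 and miR1448 are plant microRNAs (miRNAs) that act on transcripts of NBS-LRR genes, the intracellular immune receptors of plants. Their entries were taken by name from the deposited small RNA table of poplar roots, as every entry with miR482 or miR1448 in its name and no further digit after the number. This gave 15 sequences of the 472 distinct sequences listed, 13 of miR482 and 2 of miR1448. Each of the 15 has a single entry, and 11 carry a Populus trichocarpa name (ptc) while 4 are named for another species (cassava, mes; peach, ppe; grape, vvi; soybean, gma).

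The roots came from cuttings of the hybrid poplar Populus × euramericana "Neva", grown in water culture for 60 days and then given para-hydroxybenzoic acid (pHBA), a phenolic acid, for 3 days. The labelled doses were 0, 2 and 4 mML-1, presumably millimolar, so there is an untreated library, PHBA 0, and a library of each acid dose, PHBA 2 and PHBA 4. RNA of each treatment was pooled before sequencing, so each dose is 1 library, no difference has a replicate check and no p-value is given. Intervals in brackets are 95% intervals and cover counting error only.

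In plants, miR482 and its relatives pair with the stretch of NBS-LRR transcripts that encodes the P-loop, a nucleotide-binding motif shared by many of these receptors, and so a single miRNA can act on a large gene family. A 22 nt miRNA that cuts its target can also start the production of phased secondary small RNAs (phasiRNAs) from it, which a 21 nt miRNA usually does not. A miRNA is cut from a hairpin as a duplex of a 5p and a 3p strand. In the miR482 family the 3p strand is the one known to be active, and the 5p strand is its partner, usually found in smaller amounts.

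The most abundant strands and the partner strands set beside them are printed first, because the results turn on how strands of the same name differ between doses. They are written 5′ to 3′ with T for U as in the table, and the capitals mark the seed, bases 2 to 8. The suffixes L and R give bases gained (plus) or lost (minus) at the left and right ends against the registered miRNA, and ss marks a substitution. Names in capitals (MIR) with p5 or p3 belong to strands outside the registered set. The names of ptc-miR1448_L+1R+1 and of the ptc-miR482a.1 entries hold no strand, and they are taken as 3p because the table names the other strand p5.
ptc-miR1448_L+1R+1: tCTTTCCAacgcctcccatacc
ptc-MIR1448-p5_1ss20AG: tATGGGAGgattggacagtgc
ptc-miR482a.1_L+5: tCTTGCCTactcctcccattcc
ptc-miR482b-3p: tTACCAATacctctcatgccaa
ptc-miR482b-5p: gGCATGAGgtgtttggcaaga
ptc-miR482c-3p: tCTTTCCGagtcctcccatacc
ptc-miR482c-5p: tATGGGAGaggcgggaatgact
ptc-miR482d-3p: tTGCCGACcccacccatgccaa
ptc-MIR482d-p5_1ss9AT: gATGGAGGtcgaggaagtttct
ppe-miR482f_1ss14AT: tCTTTCCTactcctcccattcc

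ptc-MIR1448-p5_1ss20AG and ptc-miR482c-5p, both partner strands, share a seed, and no listed sequence outside the family holds any of the seeds printed. The 3p strands of miR1448, miR482a and miR482c and the peach-named sequence nevertheless resemble each other closely. Counting positions from 1 at the 5′ end, ptc-miR482c-3p and ptc-miR1448_L+1R+1 are identical at 19 positions and differ by G8A, G10C and T11G. ptc-miR482a.1_L+5 and ptc-miR1448_L+1R+1 differ by G5T, T8A, T11G and T20A. ppe-miR482f_1ss14AT differs from ptc-miR482a.1_L+5 by G5T alone, so it can be told from it by 1 base only. Such likeness is not confined to the members. ptc-miR472a, of a related family taken up below, differs from ptc-miR482a.1_L+5 and from ppe-miR482f_1ss14AT at 4 positions each. ptc-miR482b-3p and ptc-miR482d-3p have 16 identical positions, and both end in the same letters. The soybean-named gma-miR482a-3p_L-2_1ss14GA also matches each of them at 16 positions.

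Over the doses from 0 to 4, the members together held 29.3% (29.2 to 29.4), 30.2% (30.1 to 30.4) and 24.0% (23.9 to 24.1) of the reads on listed miRNAs. The lower share in PHBA 4 was miR1448. That family took 17.9%, 17.8% and 12.0% over the doses, while miR482 took 11.4%, 12.4% and 12.0%. For each read of miR482 there were 1.57, 1.43 and 0.995 reads of miR1448 over the doses, a comparison within each library that no scaling between libraries can change. The related miR472 family, which also acts on NBS-LRR genes, held 40.8%, 40.4% and 37.9%.

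Member reads numbered 420020, 164215 and 91414 in order of dose, so values at the higher dose rest on the fewest reads. Sequences that may be RNA fragments (among them miR5368, miR6300, miR6478 and all sequences under 20 nt) took 0.890%, 2.49% and 5.53% of listed reads over the doses. They took most in PHBA 4, where the member share was lowest. Their part in the results was not tested. Without them the member shares were 29.5%, 31.0% and 25.4%. The levels below are normalized reads, the reads times a constant that the authors applied to each library. On this scale the listed miRNAs other than miR472, miR482 and miR1448 summed to 213698, 205974 and 217382 over the doses. That sum includes the sequences that may be RNA fragments, which rose over the doses at 6365, 17500 and 31598.

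The 3p strands of miR1448 and miR482a dominated the family at every dose. ptc-miR1448_L+1R+1 stood at 120549, 115371 and 56280 normalized reads from PHBA 0 up to PHBA 4, rank 3 among all listed sequences in each library. ptc-miR482a.1_L+5, the main miR482 strand, stood at 59538, 56943 and 40656, rank 4 in each library. For both, PHBA 2 lay close to PHBA 0 and PHBA 4 was the low library. Together they made up 86.0%, 81.2% and 70.7% of member reads.

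**Figure D1:**
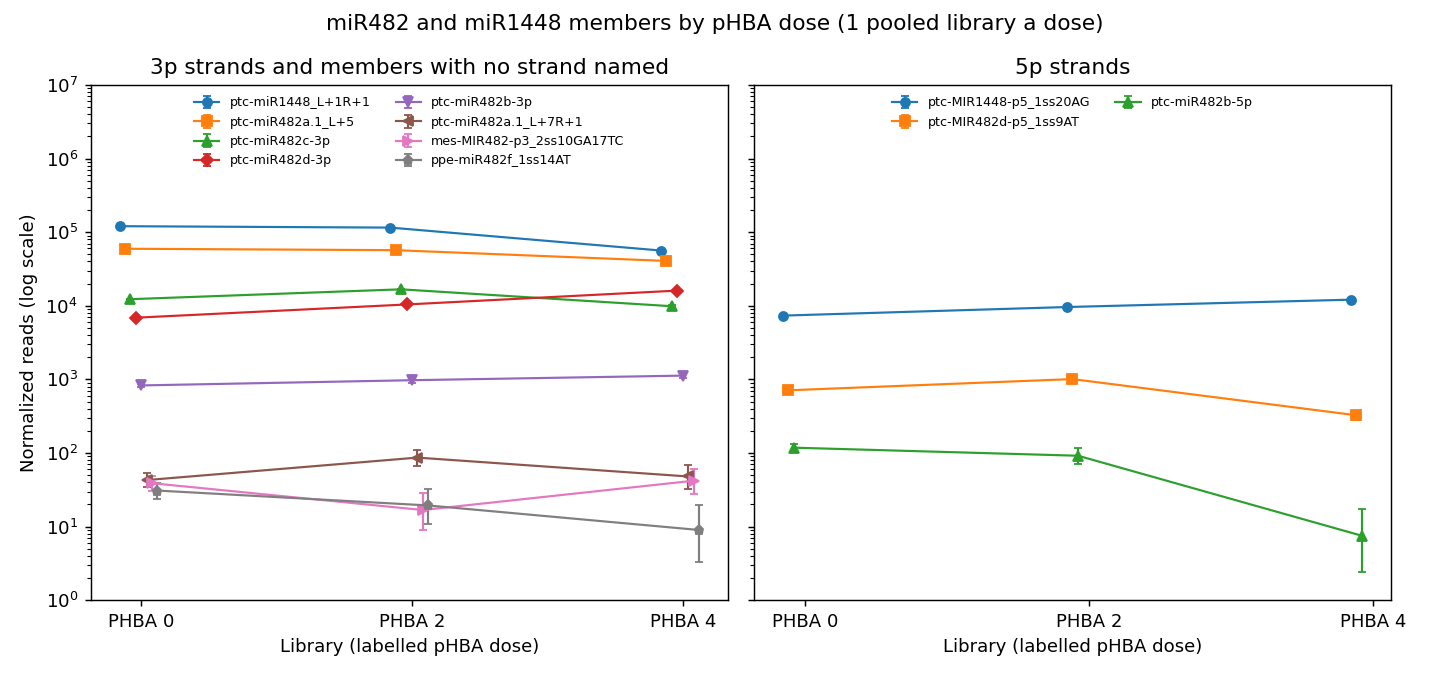
Normalized reads (log scale) of 11 members with a mean of at least 10, by library in order of dose, with 3p strands and members without a named strand on the left and 5p strands on the right; bars are exact 95% Poisson counting intervals. ptc-miR482d-3p and ptc-MIR1448-p5_1ss20AG climb with dose, while ptc-miR1448_L+1R+1 and 2 of the 3 5p strands drawn are lowest in PHBA 4.

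The other 3p strands did not share that pattern. ptc-miR482d-3p stood at 6886, 10413 and 16075 normalized reads over the doses, highest in PHBA 4. It took 8.45%, 11.9% and 23.4% of miR482 reads, and its rank in the library was 13, 10 and 6. ptc-miR482b-3p, which resembles it in sequence, also stepped up with dose but over a smaller range, at 828, 975 and 1125. ptc-miR482c-3p was highest at the lower dose, with 12288, 16730 and 9858. For each read of ptc-miR482d-3p there were 8.65, 5.47 and 2.53 reads of ptc-miR482a.1_L+5.

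**Figure D2:**
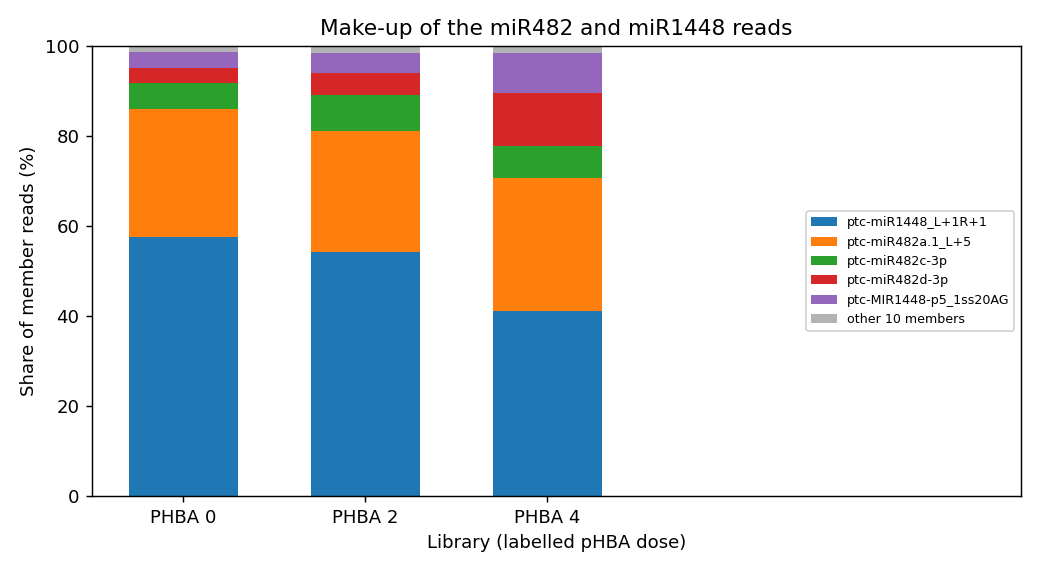
Make-up of member reads in each library (% of member reads, bars from 0), for the 5 most abundant members and the other 10 summed. ptc-miR1448_L+1R+1 takes 57.6%, 54.3% and 41.0% over the doses, and ptc-miR482d-3p takes 3.29%, 4.90% and 11.7%.

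The 5p strands were less abundant than the 3p strands of the same name in every library. The largest was ptc-MIR1448-p5_1ss20AG, at 7349, 9615 and 12103 normalized reads, so it was highest where its 3p strand was lowest. ptc-MIR482d-p5_1ss9AT stood at 711, 1010 and 325, lowest in PHBA 4. ptc-miR482b-5p stood at 118, 91.8 and 7.50, the last from 5 reads. ptc-miR482c-5p, with a mean under 10, stood at 6.98 in PHBA 0 and 20.7 in PHBA 2 and was listed at 0 in PHBA 4.

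The members named for other species, and the 25 nt form of miR482a, were rare. ptc-miR482a.1_L+7R+1, which contains ptc-miR482a.1_L+5 and begins 2 bases earlier, stood at 42.9, 86.6 and 48.0 normalized reads. mes-MIR482-p3_2ss10GA17TC stood at 38.9, 16.8 and 42.0. The peach-named ppe-miR482f_1ss14AT stood at 30.9, 19.4 and 9, lowest in PHBA 4 like its near copy ptc-miR482a.1_L+5. The remaining pair also fell below the minimum mean of 10, with gma-miR482a-3p_L-2_1ss14GA at 2.99, 0 and 15.0 and vvi-miR482_L-2 at 3.99, 0 and 0. A listed 0 may stand for a value under a minimum, so no ratio is given against it.

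PHBA 2 was set against PHBA 0 to ask what differed at the lower dose. The largest 3p strands were nearly level, and 7 of the 12 members tested stood above their PHBA 0 value. ptc-miR1448_L+1R+1 was 1.04-fold lower in PHBA 2 (1.04 to 1.05) and ptc-miR482a.1_L+5 was 1.05-fold lower (1.03 to 1.06). ptc-miR482d-3p was 1.51-fold higher (1.47 to 1.55), ptc-miR482c-3p 1.36-fold higher (1.33 to 1.39) and ptc-MIR1448-p5_1ss20AG 1.31-fold higher (1.27 to 1.35). A sequence was called at least 2-fold different when log2 of (a + 1) over (b + 1) reached 1 in size, with 1 as pseudocount. Of these 12, the members that averaged 10 normalized reads or more, 0 were called higher and 1 lower, mes-MIR482-p3_2ss10GA17TC at 2.31-fold lower (1.28 to 4.54) from few reads. ptc-miR482a.1_L+7R+1, at 2.02-fold higher (1.45 to 2.81), fell short of the call through the pseudocount, and was called under each of the other 3 scalings tried. The background is 26% of the 289 sequences tested called in either direction, 16.3% higher and 9.69% lower. The median log2 value was 0.16 for these members and -0.03 for all tested sequences.

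PHBA 4 was set against PHBA 0 to ask the same of the higher dose, and here the members parted. ptc-miR1448_L+1R+1 was 2.14-fold lower in PHBA 4 (2.12 to 2.17), while its 5p strand ptc-MIR1448-p5_1ss20AG was 1.65-fold higher (1.60 to 1.69). For the strands named miR482d the directions were the other way round, with ptc-miR482d-3p 2.33-fold higher (2.28 to 2.39) and ptc-MIR482d-p5_1ss9AT 2.18-fold lower (1.89 to 2.53). ptc-miR482a.1_L+5 was 1.46-fold lower (1.45 to 1.48). ptc-miR482b-3p was 1.36-fold higher (1.24 to 1.48) and its named partner ptc-miR482b-5p was 15.8-fold lower (6.66 to 49.0). ptc-miR482c-3p was 1.25-fold lower (1.21 to 1.28).

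At this dose 5 of the 12 members were called, 1 higher (ptc-miR482d-3p) and 4 lower (ptc-miR1448_L+1R+1, ptc-MIR482d-p5_1ss9AT, ptc-miR482b-5p and ppe-miR482f_1ss14AT). That is 41.7% of them, against a background of 45% of all 289 sequences tested (23.9% higher and 21.1% lower). The count in either direction is near that background. Its split between higher and lower rests on 5 members, and became 2 higher and 2 lower with equal totals, so nothing is read from it. The background includes 48 sequences that may be RNA fragments, of which 40 were called higher and 0 lower. Those 40 are most of the 69 tested sequences called higher, so the background split is not a plain measure for the members. The median log2 value was -0.43 for the members and 0.01 for all tested sequences. With each library rescaled to equal totals, which moves the median of all tested sequences to 0.36, ptc-miR1448_L+1R+1 was 1.71-fold lower and ptc-MIR482d-p5_1ss9AT 1.74-fold lower, both short of the 2-fold mark. ptc-MIR1448-p5_1ss20AG was then 2.06-fold higher, past it, and the direction of ptc-miR482c-3p turned, at 1.00 times its PHBA 0 value. The other 11 of the 12 members kept their direction under the 3 scalings tried.

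**Figure D3:**
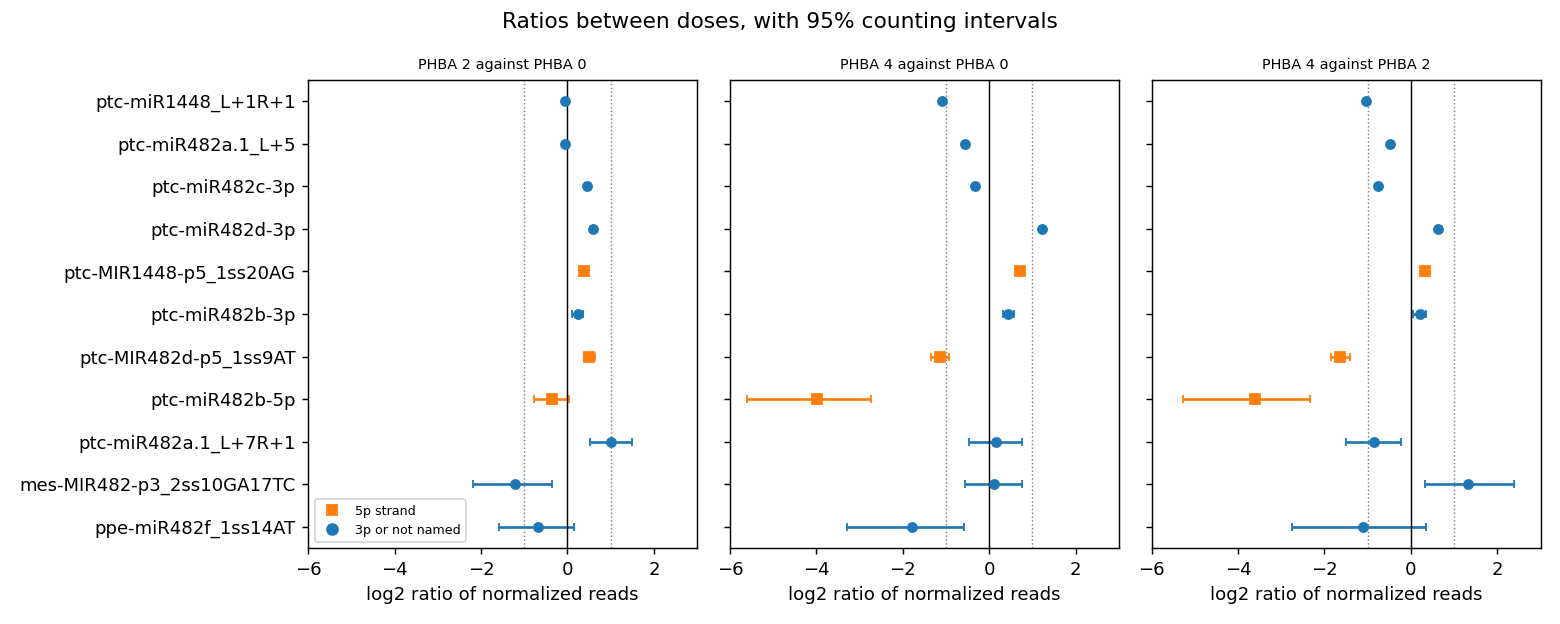
Log2 ratios of normalized reads for 11 members with a mean of at least 10, in 3 comparisons, with 95% counting intervals; the solid line marks equality and the dotted lines 2-fold. In PHBA 4 against PHBA 0 the 2 miR1448 strands lie on opposite sides of the line, as do the strands named miR482b and miR482d.

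PHBA 4 was also set against PHBA 2, the comparison of the doses themselves. ptc-miR1448_L+1R+1 was 2.05-fold lower at the higher dose (2.03 to 2.07) and ptc-MIR482d-p5_1ss9AT was 3.10-fold lower (2.67 to 3.62). ptc-miR482c-3p was 1.70-fold lower (1.65 to 1.75) and ptc-miR482d-3p 1.54-fold higher (1.50 to 1.59). The calls were 1 higher, mes-MIR482-p3_2ss10GA17TC at 2.50-fold (1.25 to 5.25), and 4 lower, in a table where 33.6% of all tested sequences were called, 17.3% higher and 16.3% lower. The members called lower were ptc-miR1448_L+1R+1, ptc-MIR482d-p5_1ss9AT, ptc-miR482b-5p and ppe-miR482f_1ss14AT, and the interval of the last included equality. With equal totals ptc-miR1448_L+1R+1 was 1.67-fold lower and ppe-miR482f_1ss14AT 1.75-fold lower, both short of the 2-fold mark, which leaves 2 lower. The 3 comparisons share libraries, so their values stand side by side and are not separate evidence.

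Most members, and nearly all of their reads, were 22 nt long. Of the 15 members 10 are 22 nt long, against 74 of the 457 other sequences. Of the rest 3 are 21 nt, 1 is 20 nt and 1 is 25 nt. Members of 22 nt carried 96.4% (96.3 to 96.4), 95.4% (95.3 to 95.5) and 91.1% (90.9 to 91.3) of member reads over the doses. The same length is found in ptc-miR472a and ptc-miR472b, and 22 nt sequences held 60.9%, 60.8% and 52.9% of all reads outside the members. With miR472 left out as well they held 7.48%, 6.88% and 6.10%. The 21 nt share of member reads was 3.59%, 4.58% and 8.86%, nearly all of it ptc-MIR1448-p5_1ss20AG. Without that strand, a choice made after seeing the data, the 22 nt share was 99.9% in each library. Members provided 39.6%, 40.5% and 35.2% of all listed 22 nt reads. The first base, which in plants bears on the Argonaute protein a small RNA enters, was T (U in the RNA) in 11 members, which held 99.1%, 99.0% and 99.3% of member reads.

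Strand balance was measured as the 5p share of the reads of both strands of a hairpin name, within each library. For miR1448 it was 5.75% (5.66 to 5.84), 7.69% (7.53 to 7.86) and 17.7% (17.4 to 18.1) over the doses. The number of 3p reads for each 5p read was thus 16.4, 12.0 and 4.65. For miR482d the 5p share was 9.36% (8.90 to 9.83), 8.84% (8.27 to 9.45) and 1.98% (1.74 to 2.26). For miR482b it was 12.5% (11.1 to 14.1), 8.61% (6.88 to 10.7) and 0.662% (0.283 to 1.54). miR482c stood at 0.0568% and 0.124% in PHBA 0 and PHBA 2, with its 5p strand listed at 0 in PHBA 4. The miR1448 balance therefore moved toward 5p at the higher dose, while those of miR482b and miR482d moved toward 3p.

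**Figure D4:**
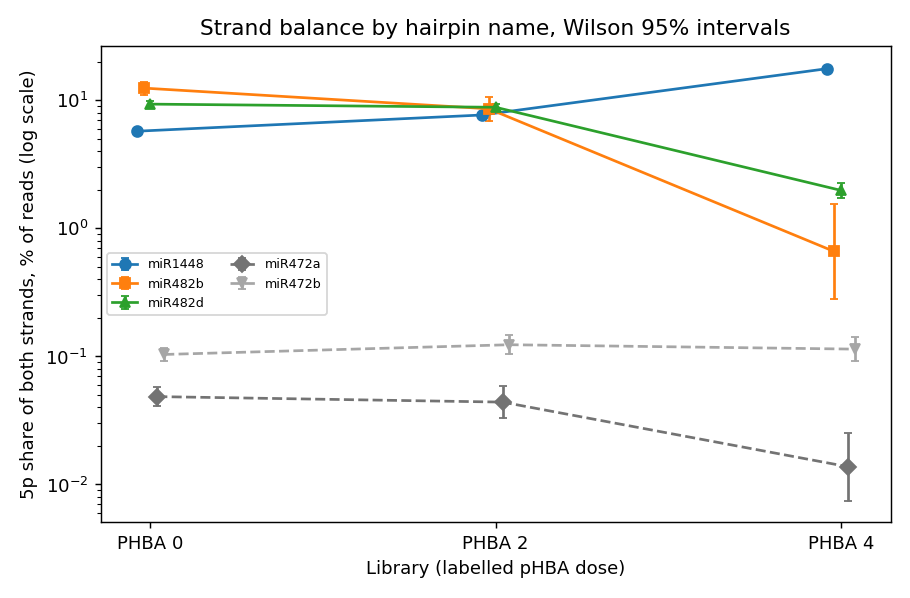
The 5p share of both strands (% of reads, log scale) by library for 3 member hairpins, with the miR472 hairpins dashed in grey; bars are Wilson 95% intervals. The miR1448 share is highest in PHBA 4 at 17.7%, where miR482d is at 1.98% and miR482b at 0.662%.

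Such shifts were not rare in the table. Among 54 poplar hairpin names with both strands at a mean of at least 10, the ratio of the less abundant to the more abundant strand was at least 2-fold lower in PHBA 4 than in PHBA 0 for 31.5% and at least 2-fold higher for 18.5%. Of the 4 member hairpins in that set, 2 were lower (miR482b and miR482d) and 1 higher (miR1448). At the lower dose 0 of the 4 reached 2-fold against PHBA 0, with 9.26% of all such hairpins lower and 7.41% higher. For miR472a the 5p share was 0.0486%, 0.0440% and 0.0138% over the doses, and for miR472b it was 0.104%, 0.123% and 0.114%.

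Whether strands that share a name also pair was examined with predicted duplexes. The miR482c strands pair at 17 (-22.1 kcal/mol), those of miR1448 at 16 (-21.4 kcal/mol) and those of miR482b at 15 (-21.1 kcal/mol). The strands named miR482d pair at 11 bases (-13.3 kcal/mol), the weakest of these. ptc-miR482b-5p was predicted to bind ptc-miR482d-3p more strongly, at 17 bases (-26.4 kcal/mol), and ptc-MIR1448-p5_1ss20AG to bind ptc-miR482c-3p more strongly, at 17 bases (-24.1 kcal/mol). ptc-MIR482d-p5_1ss9AT reached its strongest value with ptc-miR482c-3p, at 11 bases (-16.6 kcal/mol). The balances above therefore rest on names, and whether the strands named miR482b, miR482d or miR1448 come from a common hairpin was not tested.

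The balances were recomputed against the strand of strongest predicted pairing, a choice made after seeing the data. ptc-MIR1448-p5_1ss20AG then held 37.4%, 36.5% and 55.1% of the reads of itself and ptc-miR482c-3p over the doses. ptc-miR482b-5p held 1.69%, 0.874% and 0.0466% of the reads of itself and ptc-miR482d-3p. ptc-MIR482d-p5_1ss9AT held 5.47%, 5.69% and 3.20% of the reads of itself and ptc-miR482c-3p. In each case PHBA 4 stood on the same side of PHBA 0 as with the strands paired by name. Both versions use the same 5p reads, so they are not independent. For ptc-MIR1448-p5_1ss20AG and ptc-MIR482d-p5_1ss9AT, PHBA 2 stood on the other side of PHBA 0 than by name.

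The miRNAs whose profiles over the 3 libraries lay nearest to the leading members were sought among 143 sequences with a mean of at least 100, by distance between centred log2 values. ptc-miR472b (distance 0.08), ptc-miR172g-3p (0.11) and ptc-miR472a (0.11) were nearest to ptc-miR482a.1_L+5. In PHBA 4 against PHBA 0, ptc-miR472a was 1.34-fold lower (1.33 to 1.35) and ptc-miR472b 1.36-fold lower (1.35 to 1.37), beside the 1.46-fold of ptc-miR482a.1_L+5. Nearest to ptc-miR1448_L+1R+1 were 3 far less abundant sequences, ptc-MIR6457a-p3 (0.16), ptc-MIR167c-p3 (0.17) and ptc-miR6459a-3p_R-1 (0.17). With 3 libraries such likeness is a description only.

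Other miRNAs known to start secondary siRNAs in plants were read beside the members. They are miR390 (TAS3), miR393 (auxin receptor genes), miR475 and miR476 (pentatricopeptide repeat genes), miR828 (TAS4 and MYB genes), miR1444 (polyphenol oxidase genes) and miR6445 (NAC genes). Of their 29 sequences, which include partner strands, 21 were tested. In PHBA 4 against PHBA 0, 0 were called higher and 4 lower, with a median log2 value of -0.30, where 23.9% of all tested sequences were called higher and 21.1% lower. The background called higher includes the 40 possible RNA fragments given above. The 4 are 19.0% of the 21, near the 21.1% of all tested sequences called lower. In either direction the list also stood at 19.0%, below the 45% of all tested sequences. Those lower were ptc-miR390a, at 449 in PHBA 4 and 1317 normalized reads in PHBA 0, ptc-MIR476b-p3, at 38.2 and 122, ptc-MIR393a-p3, at 3.75 and 40.1, and ptc-MIR393c-p3, listed at 0 and at 14.5. Only ptc-miR390a among them has a registered name, and the others are p3 strands outside the registered set. Of the tested sequences of 22 nt in the list, ptc-miR6445a stood higher in PHBA 4, at 1759 against 1102 in PHBA 0. The others stood lower there, ptc-miR393a-5p_R+1 at 635 against 809 and ptc-MIR476b-p3 as given. In PHBA 2 against PHBA 0, 2 of the 21 were called higher (ptc-miR1444a_R+1 and ptc-MIR1444c-p5) and 1 lower (ptc-MIR393a-p3), beside a background of 16.3% higher and 9.69% lower, and the median log2 value was 0.08.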

How the data were processed

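Per the labels' protocols, pooled root RNA went into Illumina small RNA libraries. Per the submitters' processing notes, bcl2fastq 1.8.4 produced the reads. For alignment, counting, database release and genome build, the tools and versions were not given in the sources used here. The authors deposited 1 table of 673 entries with an expected count per library, whole for every member, and a normalized signal that is the expected count times 0.498 (PHBA 0), 1.29 (PHBA 2) or 1.50 (PHBA 4). The basis of the constants is not stated in the labels or headers.

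Samples were grouped by the dose in their titles. Each distinct sequence was counted once, giving 1434442, 542913 and 380800 listed reads over the doses. Library depth beyond these reads was not analysed here. Ratios of normalized reads have exact conditional binomial (Clopper-Pearson) intervals and shares have Wilson intervals, computed with scipy 1.17.1 and checked on simulated data. With no molecular identifiers, reads are not independent molecules. Sequences averaging 10 normalized reads or more were tested for a 2-fold difference with a pseudocount of 1, and members at or above that mean are otherwise named with their values. Duplexes were predicted with RNAduplex of ViennaRNA 2.7.2. Strands without an arm in their name were given the arm opposite to their named partner. 1 member is in the sums and counts but is not reported here by itself. The members, lists, rules and tests were chosen with earlier results of these data known. Alternatives tried were 3 scalings, other minimums, a pseudocount of 5, every entry counted, sets without possible fragments or with ptc names only, and, added later, sets without a strand and other strand pairings.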

Additional observations from a re-analysis of the deposited data

How the results depend on the processing

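No paired analysis was possible because each dose is 1 library. Of 78 values recomputed under an alternative, 29 stayed within counting error or within 1.5 times the count, 46 moved further and 3 changed direction; the cause was not tested. With equal totals, the ratio of the miR482 sum in PHBA 4 over PHBA 0 was 1.06, against 0.844 as deposited. Without ptc-miR482a.1_L+5, an alternative added after seeing the data, the same ratio was 1.28 (1.26 to 1.30), so its direction also rests on that member, and the miR482 ratio was 1.39 in PHBA 2 over PHBA 0 and 0.924 in PHBA 4 over PHBA 2. With totals of the miRNAs other than miR472, miR482 and miR1448, the miR1448 sum in PHBA 2 over PHBA 0 was 1.01, against 0.977 as deposited. Equal totals gave further miR482 ratios of 1.09 (PHBA 2 over PHBA 0) and 0.967 (PHBA 4 over PHBA 2), and miR1448 ratios of 0.995 (PHBA 2 over PHBA 0), 0.669 (PHBA 4 over PHBA 0) and 0.672 (PHBA 4 over PHBA 2), where the deposited scale gave 1.07 and 0.787, then 0.977, 0.535 and 0.547. Median-of-ratios factors gave 0.820 and 0.762 for miR482 and 0.519 and 0.530 for miR1448 in PHBA 4 over PHBA 0 and over PHBA 2. Totals of other miRNAs gave 1.11, 0.829 and 0.746 for miR482 in the 3 comparisons, and 0.526 and 0.518 for miR1448 in PHBA 4 over PHBA 0 and over PHBA 2.

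Members called in PHBA 2 against PHBA 0 numbered 1 as deposited, 2 under each other scaling (1 higher, 1 lower), 4 with no minimum and 0 with a minimum of 100. In PHBA 4 against PHBA 0 the count of 5 became 8 with no minimum and 3 with a minimum of 100, and equal totals gave 4, with 2 higher and 2 lower. In PHBA 4 against PHBA 2 the count of 5 became 3 with equal totals and 2 with a minimum of 100. With every entry counted, the member share of listed reads was 17.8%, 19.9% and 15.4% over the doses, and without possible fragments it was 29.5%, 31.0% and 25.4%. The 5p share over all member hairpins was 4.38%, 5.55% and 9.49%, and with miR482 hairpins only, added after seeing the data, it was 2.24%, 2.48% and 1.32%, so the rise of the pooled share over the doses rests on miR1448. The 22 nt share without ptc-MIR1448-p5_1ss20AG was 99.9% in each library, and with all members it stayed within counting error when every entry was counted or ptc names only were kept. Values of rare members in PHBA 4, such as the 5 reads of ptc-miR482b-5p, are limited by depth.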
